A study of Mus musculus with 48 samples.

Results

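The integrin genes of the mouse immunology panel other than Itgam and Itgax, which encode CD11b and CD11c, were followed in epididymal white adipose tissue across 6 diets. They were chosen by name: 8 symbols were sought among the 547 immune genes measured, 7 were found (Itgal, Itgb2, Itga4, Itga5, Itgb1, Itga6 and Itga2b), and all 7 were abundant enough to be tested. Itgae was not analysed here. In GRCm38.p6 the RefSeq genes lie at chr7:127296139-127335137 (Itgal), chr10:77530329-77565708 (Itgb2), chr2:79255426-79333114 (Itga4), chr15:103344286-103366791 (Itga5), chr8:128685654-128733579 (Itgb1), chr2:71786886-71858427 (Itga6) and chr11:102453297-102469883 (Itga2b). Each gene is 1 probe pair, so protein, splice forms and the pairing of chains were not measured.

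The tissue, the fat pad beside the testis, came from 48 mice of the inbred strain C3H/HeOuJ that had eaten their diet freely for 6 months. Control chow (CHOW) was fed to 8 of them and a commercial WESTERN DIET to 7. Another 4 diets crossed a carbohydrate with a fatty acid, and of these SUCROSE/PALMITATE had 8 mice, STARCH/PALMITATE 7, SUCROSE/OLEATE 9 and STARCH/OLEATE 9. The labels give 42% of calories as carbohydrate and 42% as fat for the 5 diets other than chow, here called the fat-rich diets. All mice are of the 1 strain with no allele or transgene named, each library is 1 mouse by its label, and sex and age are not stated in the labels.

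Integrins are membrane receptors made of an alpha and a beta chain that hold cells to the matrix or to other cells and signal in both directions. The beta 2 chain is found on leukocytes, where with the alpha L chain it forms LFA-1, a receptor for ICAM molecules on vessel walls; the alpha 4 and alpha 5 chains pair with beta 1 and bind VCAM-1 or fibronectin, which leukocytes use on their way into tissue. The alpha 6 chain makes laminin receptors of basement membranes, on endothelium and epithelium among others, and alpha IIb belongs to the platelet fibrinogen receptor.

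Promoter sequence was at hand for 4 of the 7 genes, Itga4, Itga5, Itgb1 and Itga2b, in the RefSeq table of build GRCm38.p6. The 250 bases before the start of Itga4 and Itga5, which varied together from mouse to mouse, and of Itgb1, their beta chain, are shown 5′ to 3′ on the coding strand. Capitals mark matches, on either strand, to GAGGAA (the core of the PU box), CACCC and TGTGGT (the core bound by RUNX factors).
Itga4: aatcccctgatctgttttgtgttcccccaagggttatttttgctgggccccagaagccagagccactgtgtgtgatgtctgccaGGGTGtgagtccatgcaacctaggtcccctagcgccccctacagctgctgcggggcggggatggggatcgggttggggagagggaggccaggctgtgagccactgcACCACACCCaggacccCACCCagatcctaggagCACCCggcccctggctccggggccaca
Itga5: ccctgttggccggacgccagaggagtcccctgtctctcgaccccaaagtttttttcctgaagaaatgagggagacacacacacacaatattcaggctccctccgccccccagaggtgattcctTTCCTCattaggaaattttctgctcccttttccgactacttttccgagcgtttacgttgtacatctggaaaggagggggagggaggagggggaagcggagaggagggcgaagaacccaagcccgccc
Itgb1: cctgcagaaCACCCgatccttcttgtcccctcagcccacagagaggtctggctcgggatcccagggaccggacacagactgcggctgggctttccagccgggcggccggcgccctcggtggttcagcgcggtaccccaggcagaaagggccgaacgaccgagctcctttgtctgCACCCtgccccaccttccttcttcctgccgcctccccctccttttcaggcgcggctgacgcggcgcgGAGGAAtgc
The first lies at chr2:79255176-79255425 on the plus strand, the second at chr15:103366792-103367041 on the minus strand and the third at chr8:128685404-128685653 on the plus strand. Itga4 had 4 CACCC matches and 1 match to TGTGGT, on the reverse strand from base -60 to -55, which overlaps a CACCC match. Itga5 had 1 GAGGAA match, on the reverse strand from -127 to -122, and Itgb1 had 1 on the forward strand from -9 to -4 beside 2 CACCC matches. Itga2b, whose promoter is not shown, had GAGGAA on the forward strand from -126 to -121 and from -44 to -39. Of 32851 mouse promoters of this length, 23.3% hold GAGGAA, 52.0% hold CACCC and 14.05% hold TGTGGT on either strand. The matches are a description of the letters, not of bound factors.

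Each library was scaled by its 14 reference genes (geometric mean), and every level below is a scaled count of 1 probe, to be compared between diets and not between genes. Differences are log2 differences ± SE from edgeR's quasi-likelihood test with all 48 samples in 1 fit, and the adjusted p is Benjamini-Hochberg over the 491 genes tested; "rose" and "fell" stand for an adjusted p below 0.05. In bulk tissue, fewer cells of a type and less RNA per cell cannot be told apart. Summed gene counts ran from 396391 to 888687 per library, and the negative control probes had a mean scaled count of 7.54. The ratio of positive control probes A and B, which depends on the assay alone, was 3.17 to 3.39 on chow, 2.92 to 3.16 on starch/palmitate and 2.92 to 3.07 on sucrose/oleate, with no overlap. The labels name no runs or batches of the assay. Whatever sets this ratio and the diet cannot be told apart for these 2 diets against chow. The other 3 diets, at 2.99 to 3.56, 3.11 to 3.28 and 3.27 to 3.43 for sucrose/palmitate, starch/oleate and Western diet, overlapped chow. Still, sucrose/palmitate 5 to 8, at 2.99 to 3.15, and starch/oleate 3, 6, 7, 8 and 9, at 3.11 to 3.16, lay below every chow library. In 6 libraries the epithelial gene Defb1 or Clu exceeded 5 times the highest chow value: starch/palmitate 1 and 3, starch/oleate 2 and 6, and Western diet 2 and 6. Western diet 2 had 173666 counts of Clu, a gene abundant in epididymal epithelium, against 1038 to 3378 in the other 6 of its diet, and 1180 counts of the macrophage gene Emr1 against 3167 to 6901. Results that rest on these libraries are given with and without them.

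**Figure D1:**
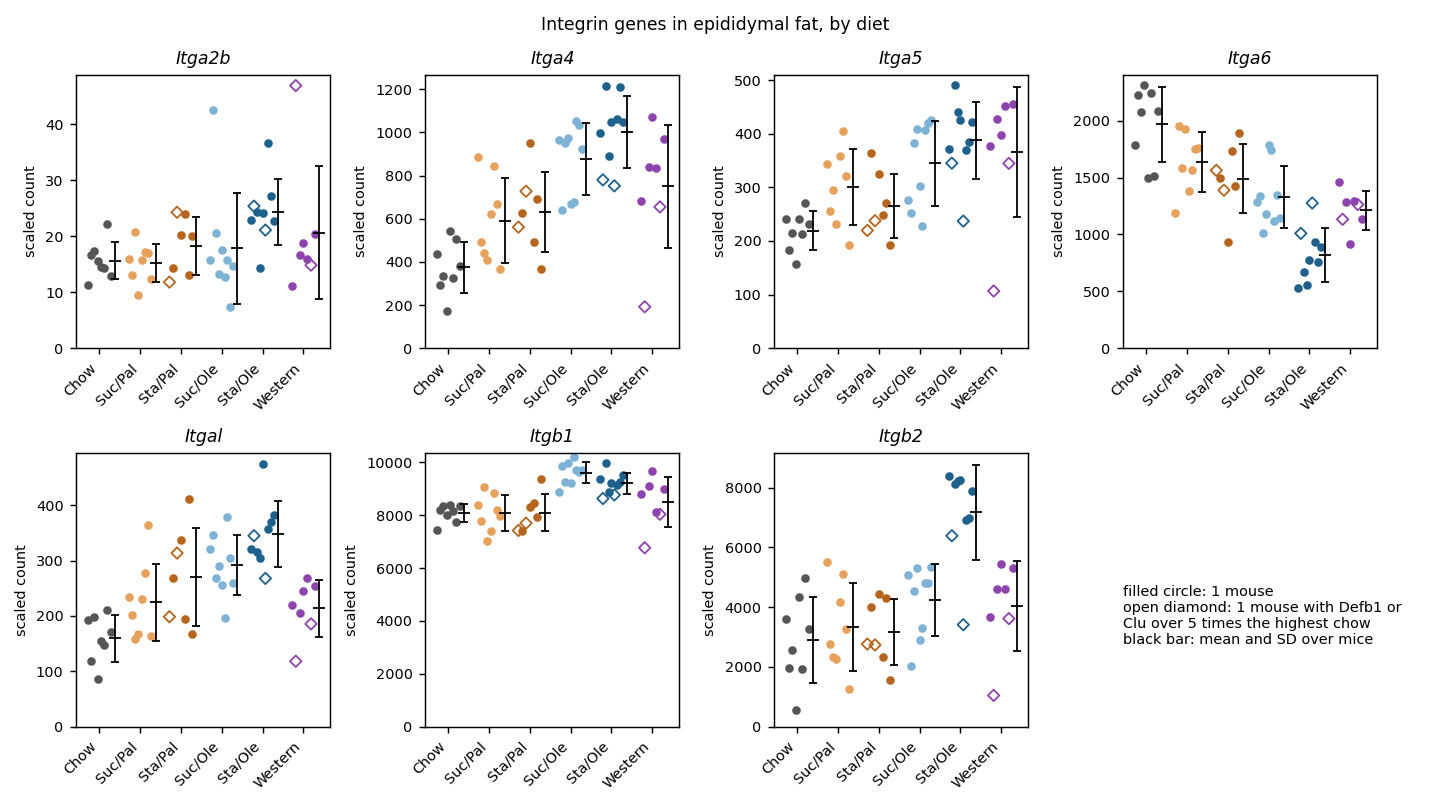
Scaled counts (vertical axis, linear, from 0) of the 7 integrin genes in each mouse by diet (horizontal axis); points are mice, open diamonds the 6 libraries high in Defb1 or Clu, and black bars the mean and SD. Itga6 runs from a chow mean of 1968 down to 822 on starch/oleate, while Itga4 runs from 374 up to 1000.5.

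Against chow, Itga4, Itga5 and Itgal were higher and Itga6 was lower on average in all 5 fat-rich diets, with the most calls on starch/oleate. On starch/oleate 6 of the 7 genes rose (48.3% of all 491 genes rose) and 1 fell (12% fell). On sucrose/oleate 4 rose (28.9% of all genes) and 1 fell (7.74%); on the Western diet 2 rose (32.8%) and 1 fell (7.94%); on starch/palmitate 2 rose (20.6%) and 1 fell (4.68%); on sucrose/palmitate 1 rose (14.9%) and none fell (2.24%). An F test found a difference among the 6 diets for 6 of the 7, all but Itga2b, where 64.8% of all genes passed. The median log2 difference of the 7 genes was 0.82 on starch/oleate, where that of all genes was 0.34, and 0.55 on sucrose/oleate, where it was 0.19. On sucrose/palmitate, starch/palmitate and the Western diet the 7 had 0.20, 0.23 and 0.42, and all genes 0.20, 0.24 and 0.25. TMM scaling, which centres on the bulk of the genes, moved the median of all genes to 0.06, 0.08, 0.01, 0.03 and 0.06 on sucrose/palmitate, starch/palmitate, sucrose/oleate, starch/oleate and the Western diet. The split of all calls on starch/oleate went from 237 higher and 59 lower to 156 and 127. The splits went from 73 and 11 to 34 and 29, from 101 and 23 to 72 and 55, from 142 and 38 to 106 and 76 and from 161 and 39 to 101 and 70 on sucrose/palmitate, starch/palmitate, sucrose/oleate and the Western diet. Itga4, Itga5 and Itgal stayed above chow and Itga6 below it in all 5 diets with TMM scaling.

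**Figure D2:**
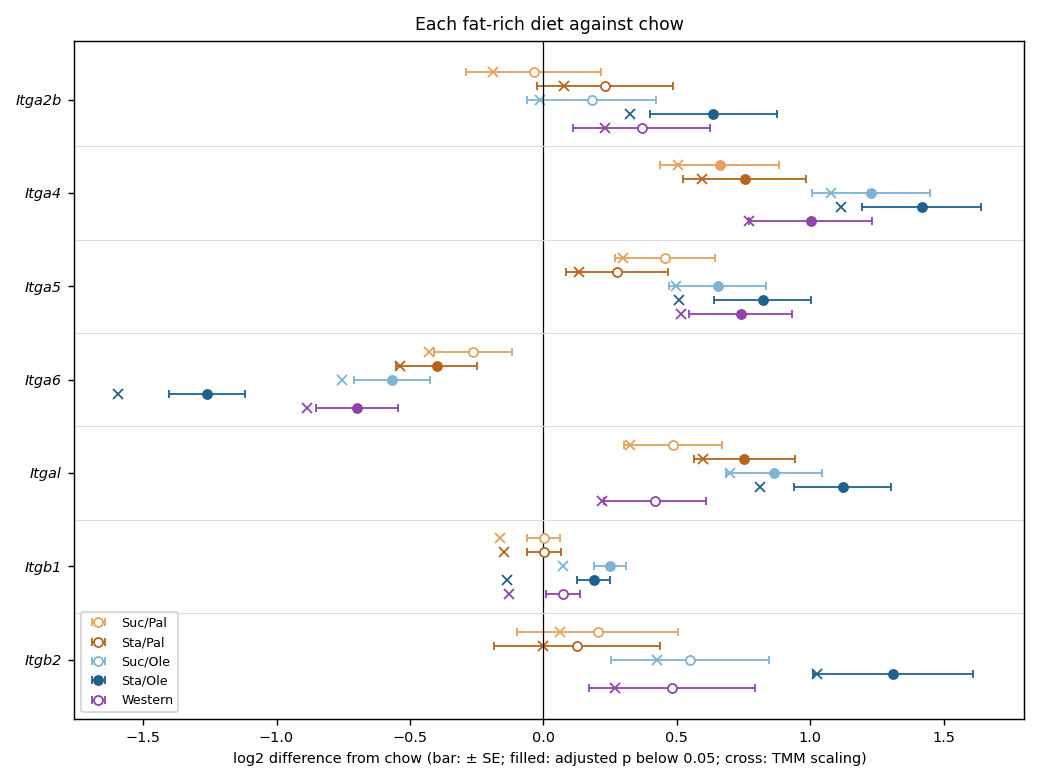
Log2 difference from chow (horizontal axis) of each integrin gene (vertical axis) in the 5 fat-rich diets, with bars of ± SE; filled circles have an adjusted p below 0.05 and crosses mark the value with TMM scaling. Itga6 lies left of 0 in all 5 diets with both scalings, down to -1.26 on starch/oleate, and for Itgb1 on starch/oleate the filled circle (0.19) and the cross (-0.14) lie on opposite sides of 0.

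Itgb2, the common beta chain of the leukocyte integrins, rose on starch/oleate. Its counts were 565 at the lowest, 2900.5 at the median and 4980.0 at the highest on chow, and 3409, 7888 and 8384 on starch/oleate. Of the 9 starch/oleate libraries 8 lay above the highest chow library, and the lowest, replicate 6, lay inside the chow range. The difference was 1.31 ± 0.30, or 2.48-fold (adjusted p = 0.00025), and it held under every alternative run. On sucrose/oleate the lowest, median and highest counts were 2018, 4818 and 5327, and on the Western diet 1042, 4605 and 5429. Both diets overlapped chow, and their differences of 0.55 ± 0.30 (adjusted p = 0.14) and 0.48 ± 0.31 (adjusted p = 0.22) did not pass; without the 6 libraries high in Defb1 or Clu the Western diet had 0.71 (adjusted p = 0.060). The palmitate diets lay closest to chow, with medians of 3017 for sucrose/palmitate and 2762 for starch/palmitate. In the order of means, chow (2895), starch/palmitate (3160.0), sucrose/palmitate (3334), Western diet (4042) and sucrose/oleate (4234) each differed from the next by less than the larger SD, and starch/oleate (7175) stood above sucrose/oleate by more.

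Itgal, the alpha L chain of LFA-1, rose on starch/palmitate and on both oleate diets. Chow libraries had 85.8 at the lowest, 163 at the median and 210.1 at the highest. Starch/oleate libraries had 268, 345 and 475, and sucrose/oleate libraries 196, 290.3 and 379. Every starch/oleate library, and 8 of the 9 on sucrose/oleate, lay above every chow library. The differences were 1.12 ± 0.18 for starch/oleate (adjusted p = 2.0e-06), 0.86 ± 0.18 for sucrose/oleate (adjusted p = 0.00026) and 0.75 ± 0.19 for starch/palmitate (adjusted p = 0.0033). Starch/palmitate ranged from 167 to 411 around a median of 269, with 4 of 7 libraries above chow. Sucrose/palmitate (0.49 ± 0.18, adjusted p = 0.059) and the Western diet (0.42 ± 0.19, adjusted p = 0.074) did not pass, and without Western diet replicate 2 they had 0.48 (adjusted p = 0.040) and 0.52 (adjusted p = 0.020). Both also passed without chow 7, at 0.55 and 0.48, and sucrose/palmitate without its replicates 3, 4 or 8 or starch/palmitate 7. Only the step from chow (160.0) to the Western diet (214) in the order of means exceeded the larger SD.

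The other alpha chains that pair with Itgb2 give the context for it. Itgam, part of complement receptor 3, averaged 1055 ± 324 in the 8 chow mice and 2045 ± 455 (SD) in the 9 starch/oleate mice, and rose in the latter by 0.95 ± 0.22 (adjusted p = 0.00026). Itgam did not pass on the other 4 fat-rich diets, with differences from 0.08 to 0.40. Itgax, the alpha chain of complement receptor 4, rose in all 5, by 1.16 ± 0.33 on sucrose/palmitate, 1.00 ± 0.34 on starch/palmitate, 1.97 ± 0.33 on sucrose/oleate, 1.92 ± 0.33 on starch/oleate and 1.69 ± 0.34 on the Western diet. Itgb2 thus passed on the 1 diet where Itgam also did; whether the chains differ from each other was not tested.

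Itga4, the alpha 4 chain of VLA-4, was the one integrin of the 7 called in all 5 fat-rich diets. Its counts on chow were 172 at the lowest, 358 at the median and 541 at the highest. Starch/oleate libraries had 752, 1049 and 1216, and sucrose/oleate libraries 642, 953 and 1053. All 18 mice on the oleate diets lay above all 8 on chow. Itga4 rose by 1.42 ± 0.22, or 2.67-fold, on starch/oleate (adjusted p = 1.2e-06) and by 1.23 ± 0.22 on sucrose/oleate (adjusted p = 3.4e-05). The Western diet, with 192, 836 and 1073, had 6 of 7 libraries above every chow library and a rise of 1.00 ± 0.23 (adjusted p = 0.00064); without replicate 2, its lowest, the rise was 1.17 (adjusted p = 1.2e-05). Sucrose/palmitate had 369, 558 and 884 and starch/palmitate 367, 629 and 952. Of these mice 4 of 8 and 5 of 7 lay above the chow range and the rest inside it. The rises were 0.66 ± 0.22 (adjusted p = 0.040) and 0.75 ± 0.23 (adjusted p = 0.0145), the second lost without starch/palmitate 4 (0.63, adjusted p = 0.053). The sucrose/palmitate call was lost under 5 of 10 alternatives, TMM scaling (adjusted p = 0.070), DESeq2, only the groups compared, the positive control ratio and the lymph node covariate (0.42, adjusted p = 0.298), and on leaving out any 1 of 9 single libraries (chow 2, 3, 4, 6 or 8, or sucrose/palmitate 1, 5, 6 or 7), with values from 0.55 to 0.75 over all 48 such fits.

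Itga5, the alpha 5 chain of the fibronectin receptor, rose on the oleate diets and the Western diet. Chow libraries had 156 at the lowest, 224 at the median and 271 at the highest. The same 3 values were 237, 385 and 491 on starch/oleate, 228, 382 and 425 on sucrose/oleate and 107, 398 and 456 on the Western diet. Above the highest chow library lay 8 of 9, 7 of 9 and 6 of 7 mice, and the 1 Western diet mouse below was replicate 2. The differences were 0.82 ± 0.18 (adjusted p = 0.00016), 0.65 ± 0.18 (adjusted p = 0.0042) and 0.74 ± 0.19 (adjusted p = 0.0021), and without that mouse the Western diet had 0.90 (adjusted p = 1.5e-05). On the palmitate diets Itga5 had medians of 308 with sucrose (0.46 ± 0.19, adjusted p = 0.080) and 249 with starch (0.28 ± 0.19), both overlapping chow. The first passed without sucrose/palmitate 8 (0.53, adjusted p = 0.042) and without Western diet 2 (0.45, adjusted p = 0.025). All neighbours in the order of means, from chow (219) to starch/oleate (387), differed by less than the larger SD.

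Itgb1, the beta chain of both, varied little from mouse to mouse (8081 ± 337 on chow, SD, n = 8), and its direction on starch/oleate depended on the scaling. Chow libraries had 7434 at the lowest, 8182 at the median and 8384 at the highest. Sucrose/oleate libraries had 8900.1, 9700.3 and 10195, and starch/oleate libraries 8634, 9239 and 9984. Every oleate library lay above every chow library after scaling to the reference genes, yet the means differed by a factor of only 1.19 and 1.14. The differences were 0.25 ± 0.06 (adjusted p = 0.0012) and 0.19 ± 0.06 (adjusted p = 0.0072). With TMM scaling they were 0.07 (adjusted p = 0.47) and -0.14 (adjusted p = 0.11), and DESeq2 called Itgb1 lower on starch/oleate (-0.16, adjusted p = 0.038). On sucrose/palmitate (0.00 ± 0.06), starch/palmitate (0.00 ± 0.06) and the Western diet (0.07 ± 0.06) Itgb1 did not pass, and with TMM scaling these 3 values lay below 0 (-0.16, -0.15 and -0.13). Without the 6 libraries high in Defb1 or Clu the Western diet had 0.15 (adjusted p = 0.047).

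Itga6, the laminin-binding alpha 6 chain, was the only one of the 7 to fall, and it fell most on starch/oleate. Its counts on chow were 1498 at the lowest, 2081 at the median and 2316 at the highest. Starch/oleate libraries had 529, 775 and 1276, and Western diet libraries 915, 1263 and 1459.7. All mice on these 2 diets lay below all mice on chow. Itga6 fell by 1.26 ± 0.14, or 2.39-fold, on starch/oleate (adjusted p = 2.5e-09) and by 0.70 ± 0.15, or 1.62-fold, on the Western diet (adjusted p = 0.00036), under every alternative run. On sucrose/oleate the counts were 1015, 1284 and 1789.7, with 7 of 9 libraries below chow and a fall of 0.57 ± 0.14 (adjusted p = 0.0016). On starch/palmitate they were 935, 1499 and 1891, and on sucrose/palmitate 1192, 1667 and 1951. Most of these mice lay inside the chow range, with 3 of 7 and 2 of 8 below it, although all were below the chow mean. Starch/palmitate passed (-0.40 ± 0.15, adjusted p = 0.047), but 7 of 10 alternatives ended the call, among them the replicate block (adjusted p = 0.054) and the fit without the 6 libraries high in Defb1 or Clu (-0.39, adjusted p = 0.070). Leaving out any 1 of 14 libraries also ended it (chow 2, 3, 4, 6 or 8, starch/palmitate 1, 2, 3, 4 or 6, sucrose/oleate 1 or 8, Western diet 3 or 5), with values from -0.47 to -0.31. Sucrose/palmitate did not pass (-0.26 ± 0.15, adjusted p = 0.195).

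Itga2b, the alpha IIb chain of platelets and megakaryocytes, lay close to the background of the assay. It exceeded the highest negative control probe of its own library in 36 of 48 libraries, 5 of 8 on chow and 9 of 9 on starch/oleate. Its counts were 11.4, 15.03 and 22.2 (lowest, median, highest) on chow and 14.2, 24.2 and 36.7 on starch/oleate, with 7 of 9 mice above chow. The difference of 0.64 ± 0.24 (adjusted p = 0.019) was 0.32 (adjusted p = 0.25) with TMM scaling, and without starch/oleate replicate 7 it missed the threshold (0.54, adjusted p = 0.051). In the other 4 diets Itga2b did not pass, nor between sucrose and starch, unless sucrose/oleate 2 was left out (-0.49, adjusted p = 0.031, and -0.72, adjusted p = 0.012, with oleate). Its highest counts anywhere were 46.9 in Western diet 2 and 42.5 in sucrose/oleate 2. The latter library also held 381 counts of Ppbp, a platelet chemokine, against 17.3 to 37.9 in the other 8 of its diet; what part platelets have in its value was not tested.

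The starch/palmitate and sucrose/oleate calls were also fitted with the assay ratio. With the ratio of positive controls A and B as a covariate none of the 7 genes was called on either diet. Itga4 then had 0.49 ± 0.32 (adjusted p = 0.42) on starch/palmitate and 0.93 ± 0.33 (adjusted p = 0.082) on sucrose/oleate. Itga6 had -0.36 ± 0.20 and -0.51 ± 0.21. Without the covariate these SEs were smaller, 0.23 and 0.22 for Itga4 and 0.15 and 0.14 for Itga6. The share of all genes called with the covariate is not given here, so the loss is not read as particular to the integrins. On sucrose/palmitate the 1 call was lost too (Itga4, 0.57 ± 0.23, adjusted p = 0.10). The range of its ratio overlaps that of chow. Its replicates 1 to 4 had 3.31 to 3.56, while replicates 5 to 8, at 2.99 to 3.15, lay below every chow library. On starch/oleate and the Western diet, which also overlap chow, all calls but that of Itga2b were kept, with Itga4 at 1.30 ± 0.24 and 1.04 ± 0.23 and Itga6 at -1.24 ± 0.16 and -0.71 ± 0.16.

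The crossed diets ask what the fat and the carbohydrate each did. Averaged over sucrose and starch, palmitate gave lower Itga4, Itga5, Itgal, Itgb1 and Itgb2 than oleate and higher Itga6, so 5 of the 7 were lower (23.6% of all genes) and 1 higher (10.8%). With TMM scaling the split of all calls went from 53 higher and 116 lower to 100 and 92. Itgb2 differed by -0.76 ± 0.21 (adjusted p = 0.0055), Itga4 by -0.62 ± 0.16 (adjusted p = 0.0029), and Itga5 and Itgal each by -0.37 ± 0.13 (adjusted p = 0.023 and 0.021). Itga6 differed by 0.58 ± 0.10 (adjusted p = 4.4e-05). Itgb1 had -0.22 ± 0.04 (adjusted p = 0.00022), but -0.12 (adjusted p = 0.066) with TMM scaling, and Itga5 missed the threshold with the replicate block (-0.32, adjusted p = 0.083). Itga2b did not pass (-0.31 ± 0.17).

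**Figure D3:**
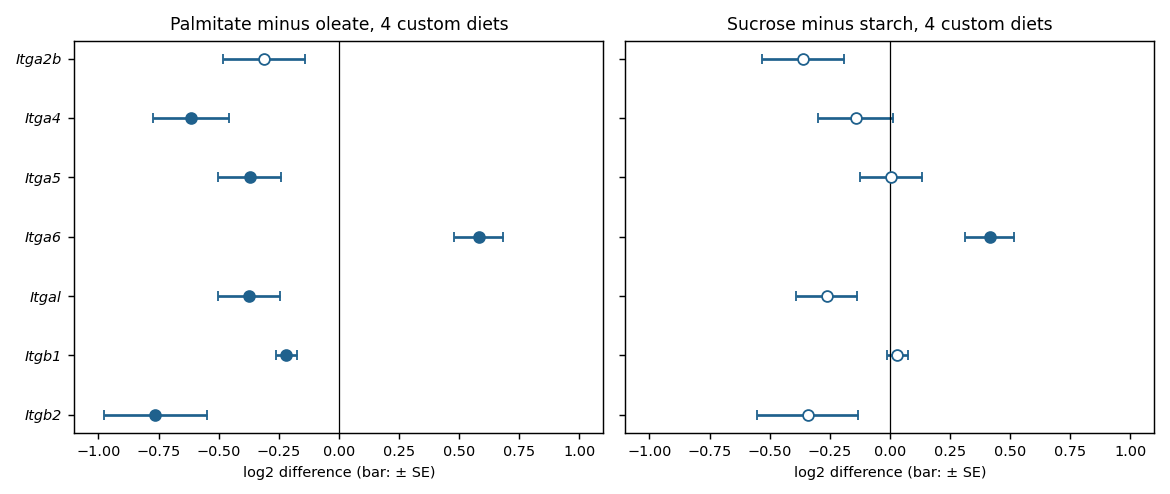
Log2 differences ± SE (horizontal axis) of palmitate minus oleate (left) and sucrose minus starch (right) over the 4 custom diets for each integrin gene (vertical axis); filled circles have an adjusted p below 0.05. On the left 6 circles are filled, with Itga6 alone to the right of 0, and on the right only that of Itga6 is filled, at 0.41.

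The kind of carbohydrate was called for Itga6 alone. Averaged over the fats, sucrose gave higher Itga6 than starch, by 0.41 ± 0.10 (adjusted p = 0.0073), so 1 of the 7 was higher (4.07% of all genes) and none lower (5.91%). The 3 other pairwise steps with a call placed it as follows. Sucrose minus starch with oleate was 0.69 ± 0.14 for Itga6 (adjusted p = 0.00044), 1 of the 7 higher (5.09%) and none lower (9.98%). The positive control ratios of sucrose/oleate (2.92 to 3.07) and starch/oleate (3.11 to 3.28) did not overlap. Whatever sets this ratio and the carbohydrate cannot be told apart in this step. Itgb2 had -0.76 ± 0.29 there (adjusted p = 0.062). It passed without the 6 libraries high in Defb1 or Clu (-0.89, adjusted p = 0.021) and without starch/oleate 6 (-0.85, adjusted p = 0.035). Leaving out chow 4 or Western diet 2 also let it pass (-0.76 for both). Itgb1 passed there only with TMM scaling (0.21, adjusted p = 0.038) and DESeq2 (0.21, adjusted p = 0.013). Palmitate minus oleate with starch had 4 of the 7 lower (24.2%), Itgb2 (-1.18 ± 0.31), Itga4 (-0.66 ± 0.23), Itga5 (-0.55 ± 0.19) and Itgb1 (-0.19 ± 0.06), and 1 higher (8.35%), Itga6 (0.86 ± 0.15, adjusted p = 3.6e-05). With sucrose, Itgb1 was the 1 gene lower (1.43% of all genes; -0.25 ± 0.06, adjusted p = 0.027) and none was higher (2.24%); Itga4 had -0.57 ± 0.22 there (adjusted p = 0.11), which passed without Western diet 2 (adjusted p = 0.044). Palmitate and oleate diets were also nearly apart in the positive control ratio. With starch, all starch/palmitate libraries but replicate 2 (3.16) lay below every starch/oleate library (3.11 to 3.28). With sucrose, all sucrose/palmitate libraries but replicate 6 (2.99) lay above every sucrose/oleate library (2.92 to 3.07). Whatever sets this ratio and the fat can hardly be told apart in either step. The call of Itgb1 with sucrose was lost with the replicate block (adjusted p = 0.061) and the positive control ratio (adjusted p = 0.33), and that of Itga4 there was gained with TMM scaling, DESeq2 and the lymph node covariate. With starch, Itga5 and Itgb1 lost their calls with TMM scaling (-0.38 and -0.01) and DESeq2, Itga5 with the replicate block (adjusted p = 0.064) and Itgb1 without the 4 libraries apart in epithelial markers. With the lymph node covariate only Itga6 was still called there (0.71 ± 0.16), while Itgb2 had -0.96 ± 0.33 (adjusted p = 0.053) and Itga4 -0.39 ± 0.23 (adjusted p = 0.27). With single libraries left out, the call of Itgb1 with sucrose was lost without sucrose/palmitate 4 or sucrose/oleate 4, that of Itga4 with starch without starch/palmitate 5 or 7, that of Itga5 without starch/palmitate 1 or 7 and that of Itgb1 without starch/palmitate 1, with adjusted p from 0.050 to 0.069. Itgal with starch passed without starch/palmitate 6 (-0.50, adjusted p = 0.039).

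In 3 comparisons none of the 7 was called by edgeR. The interaction, which tests whether the carbohydrate difference changes with the fat, called 4.07% of all genes higher and 1.43% lower; Itga6 had -0.56 ± 0.20 (adjusted p = 0.12) and was the 1 gene with an unadjusted p below 0.05. DESeq2 called Itga6 there (-0.73, adjusted p = 0.045), as did the fits without the 6 libraries high in Defb1 or Clu (-0.73, adjusted p = 0.034), without starch/palmitate 4 (-0.64) and without starch/oleate 6 (-0.66). Sucrose minus starch with palmitate called 0.611% of all genes higher and 1.43% lower; no integrin had an unadjusted p below 0.05, and DESeq2 called none. The Western diet against sucrose/palmitate called 2.65% higher and 3.46% lower; Itga6 had -0.43 (adjusted p = 0.074), the 1 gene with an unadjusted p below 0.05, and DESeq2 called none. It passed without sucrose/palmitate 1 (-0.49, adjusted p = 0.041), and without the 6 libraries Itga5 passed (0.49, adjusted p = 0.032).

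Ratios of 2 chains within a mouse do not depend on the scaling between libraries. Each was compared between every fat-rich diet and chow by an exact two-sided permutation test, with adjustment over the 15 tests. For Itga4 over Itgb1, the 2 chains of VLA-4, the probe counts of Itga4 were 4.65% ± 1.54 of those of Itgb1 on chow (SD, n = 8), 10.8% ± 1.45 on starch/oleate (SD, n = 9) and 9.15% ± 1.83 on sucrose/oleate (SD, n = 9). All 9 starch/oleate mice, at 8.58% or more, lay above the highest chow mouse at 6.54%, while the lowest sucrose/oleate mouse, at 6.51%, did not. The log2 difference was 1.29 on starch/oleate and 1.03 on sucrose/oleate (exact permutation, adjusted p = 0.00062 for both); the unadjusted p on starch/oleate, 4.1e-05, is the smallest the 24310 splits can give. The ratio was also higher on sucrose/palmitate (0.67, exact permutation, adjusted p = 0.048), starch/palmitate (0.78, adjusted p = 0.048, exact permutation) and the Western diet (0.86, exact permutation, adjusted p = 0.0497). These 3 calls lay close to the threshold, and each was lost on leaving out chow 2, 3, 4, 6 or 8. The first was also lost without sucrose/palmitate 1, 2, 5, 6 or 7, the second without starch/palmitate 1, 2, 3, 4 or 6, and the third without chow 1 or any Western diet mouse but replicate 2. Over all mice left out the 3 values ran from 0.52 to 0.76, from 0.63 to 0.93 and from 0.71 to 1.104.

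For Itgb2 over Itgb1, which sets the leukocyte chain against the broadly expressed one, the probe counts of Itgb2 were 36.03% ± 18.4 of those of Itgb1 on chow (SD, n = 8) and 77.7% ± 16.04 on starch/oleate (SD, n = 9). The highest chow mouse had 64.2% and the lowest starch/oleate mouse, replicate 6, had 38.9%, so the groups overlapped. The log2 difference was 1.31 (exact permutation, adjusted p = 0.0037), and the other 4 diets, at 0.27 to 0.50, did not pass. Itgal over Itgb2 did not pass on any diet, with log2 differences of 0.47 on starch/palmitate (exact permutation, adjusted p = 0.22) and -0.34 on starch/oleate (exact permutation, adjusted p = 0.36) at the ends; without chow 4, a mouse with 565 counts of Itgb2, starch/palmitate had 0.65 (exact permutation, adjusted p = 0.024).

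**Figure D4:**
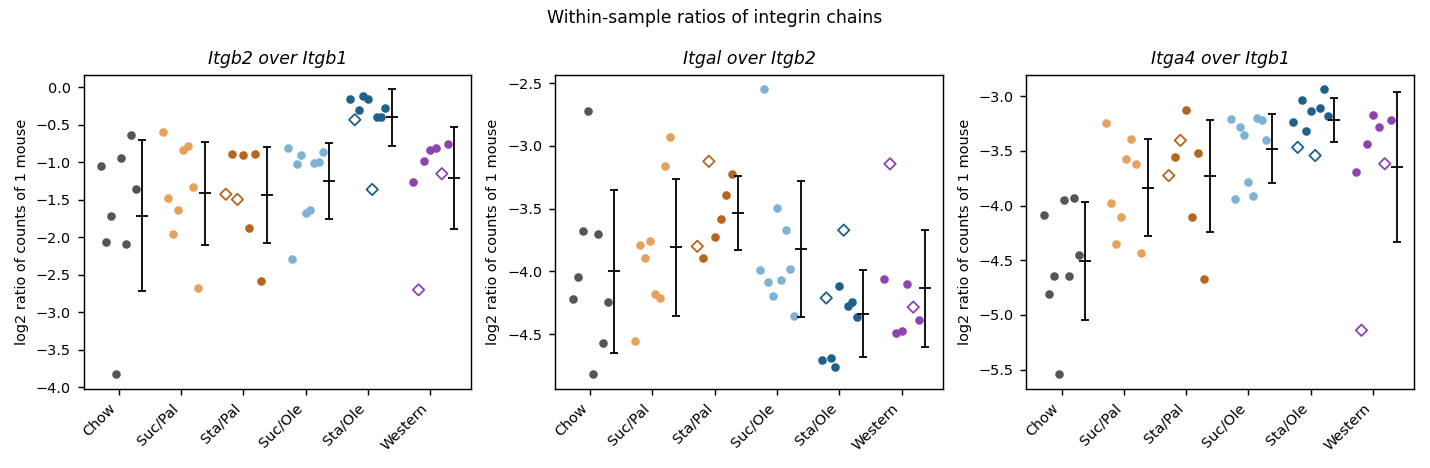
Log2 ratio of the probe counts of 2 integrin chains in each mouse (vertical axis) by diet (horizontal axis); points are mice, open diamonds the 6 libraries high in Defb1 or Clu, and black bars the mean and SD. The Itga4 over Itgb1 ratio is lowest on chow, with a mean of -4.51, and highest on starch/oleate, with -3.22; ratios of different probe pairs are not comparable in level.

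Within diets 4 of the genes, Itga4, Itga5, Itgal and Itgb2, varied together from mouse to mouse. After each diet's mean was removed from the log2 counts, Itga4 and Itgb2 had a Pearson correlation of 0.91 over 48 mice, Itga4 and Itga5 0.86, Itga5 and Itgb2 0.83, Itga4 and Itgal 0.76 and Itgal and Itgb2 0.71. Each of these was positive in all 6 diets. The Spearman correlations were 0.87, 0.78, 0.81, 0.71 and 0.66, and without the 2 mice farthest from the median the Pearson values were 0.88, 0.77, 0.79, 0.68 and 0.60. Itga6 ran the other way, with -0.55 against Itgb2 and -0.50 against Itga4, negative in all 6 (-0.50 and -0.66 without the 2 farthest mice). Itgb1 had no steady relation, with 0.38 against Itga4 and 0.15 without Western diet 2. These correlations are descriptions: all genes of a mouse share its library and scaling factor, and the median correlation with all other tested genes was 0.26 for Itga4, 0.14 for Itgb2 and -0.12 for Itga6.

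**Figure D5:**
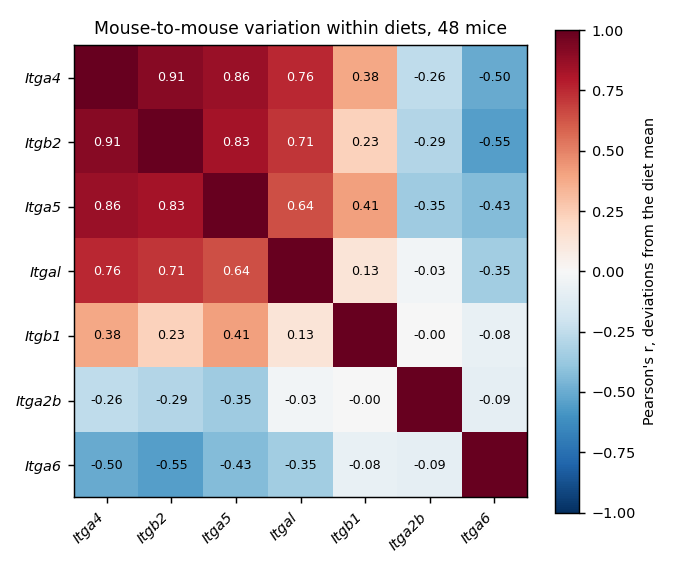
Pearson correlation between pairs of integrin genes over 48 mice, after the diet mean was taken from each log2 count; both axes list the genes, and colour and number give r. Itga4, Itgb2, Itga5 and Itgal form the block of high values, from 0.64 to 0.91, and Itga6 has negative values with all 6 others.

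For each integrin, the 3 other genes with the most similar within-diet pattern over the same 48 mice were found. Itgb2 was nearest to Cd44, the hyaluronan receptor (0.97), Ncf4, a subunit of the phagocyte NADPH oxidase (0.97), and Trem2, a lipid receptor of macrophages (0.97). Itga4 was nearest to Irf5, Cd48 and Ptprc (0.96 each), the last encoding CD45, the tyrosine phosphatase of leukocytes. Itgal was nearest to Spn, which encodes CD43 (0.88), Irf8 and Slamf7 (0.85 each), and Itga5 to Tnfsf12 (0.90), Ncf4 (0.89) and Cd83 (0.88). Itga6 was nearest to Cd164 and Cd1d1 (0.75 each) and to Cdh5 (0.73), which encodes the VE-cadherin of endothelial junctions. Itgb1 followed the signalling genes Jak1 (0.71), Irak4 (0.68) and Stat6 (0.64) less closely, and Itga2b had its closest matches at Jak2 (0.64), Il4ra (0.60) and H2-DMb2 (0.58).

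The pathway around the integrins was described by 3 lists of ligands, membrane partners and signalling genes. Of 7 integrin ligands tested, 3 rose (48.3% of all genes) and 2 fell (12%) on starch/oleate (median 0.06, all genes 0.34). The part that rose was near the share over all genes. Icam1, a ligand of LFA-1 induced in inflammation, rose by 0.84 ± 0.14, and Thy1, a cell-surface adhesion ligand, by 0.83 ± 0.18. Icam2, the constitutive endothelial ligand of LFA-1, fell by 0.86 ± 0.14, and Vtn, vitronectin, by 1.22 ± 0.24. Vcam1, the ligand of alpha 4 integrins and named after its values were seen, was the third to rise (0.64 ± 0.15). Icam1 rose in each of the 5 diets, by 0.46 to 0.87, and also with TMM scaling (0.31 to 0.69). Fn1, fibronectin, the ligand of alpha 5 beta 1 and likewise named after its values were seen, had 0.06 ± 0.22 on starch/oleate. Of the 7, 2 were higher (10.8% of all genes) and 2 lower (23.6%) with palmitate than with oleate. Higher were Icam2 (0.40 ± 0.10) and Icam4 (0.52 ± 0.15). Lower were Icam1 (-0.39 ± 0.10) and Vcam1 (-0.30 ± 0.11, which missed the threshold with TMM scaling at -0.19).

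Genes that carry integrin signals were most often called on the oleate diets and the Western diet. Of 12 signalling genes 10 rose (48.3% of all genes) and 1 fell (12%) on starch/oleate (median 0.94). Those that rose included Ptpn6, the phosphatase SHP-1 (1.72 ± 0.21), and Lck, a kinase also on the T cell list (0.97 ± 0.17). They also included Tyrobp (1.52 ± 0.27) and Fcer1g (1.45 ± 0.24), the adaptors through which leukocyte integrins reach Syk. The 1 that fell was Ptk2, focal adhesion kinase (-0.19 ± 0.08), named after its values were seen. With TMM scaling 8 rose and 1 fell, where 156 of all 491 genes rose and 127 fell. On sucrose/palmitate 2 of the 12 rose, where 14.9% of all genes did, and on starch/palmitate 3 did, against 20.6%, both near the share over all genes. On sucrose/oleate 8 rose (28.9% of all genes) and on the Western diet 7 (32.8%). None fell on these 4 diets, and 7 of the 12 were lower with palmitate than with oleate (23.6% of all genes). Of 8 tetraspanins and membrane partners 5 rose (48.3% of all genes) and 2 fell (12%) on starch/oleate. Cd9 (1.22 ± 0.17) and Cd44 (1.19 ± 0.25) were higher and Cd81 (-0.57 ± 0.11) and Pecam1 (-0.71 ± 0.15) lower. With TMM scaling the count was 3 and 3, where 156 of all 491 genes rose and 127 fell, so both were near the share over all genes.

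Markers of cell types were read against the 48.3% of all genes that rose and the 12% that fell on starch/oleate. Of 12 macrophage markers 9 rose and 1 fell on starch/oleate, and their summed count was 4369 to 11894 on chow and 13750 to 21305 on starch/oleate; the sum of Western diet 2, at 4964, was the lowest of its diet, as were its Itga4, Itga5, Itgal and Itgb2. Of 15 T cell markers 8 rose, near the share over all genes, with sums of 428 to 720.0 on chow and 674 to 1389.6 on starch/oleate. Of 5 endothelial markers none rose and 3 fell on starch/oleate, Cdh5 (-1.35 ± 0.16), Icam2 and Pecam1, the last 2 also on the lists above. Their sums were 5269 to 8884 on chow and 4311 to 6710.5 on starch/oleate. With TMM scaling 4 of the endothelial markers fell, where 127 of all 491 genes did. Of the other lists, 7 of 8 B cell, 9 of 10 cytotoxic and natural killer, 3 of 3 mast cell, 4 of 5 neutrophil and 5 of 7 dendritic cell markers rose there. Of 3 adipocyte markers 2 fell, Cfd, adipsin (-4.11 ± 0.48), and Pparg, the regulator of adipocyte differentiation (-1.49 ± 0.15). No macrophage, T cell or endothelial marker was at 0 in a library. The part of these cell types in the integrin differences was not tested. Of 11 lymph node markers 10 rose on starch/oleate. With their mean as a covariate Itga4 kept a difference of 1.01 ± 0.25 on that diet, Itgal 0.70 ± 0.20, Itgb2 0.99 ± 0.35, Itga5 0.71 ± 0.23 and Itga6 -1.05 ± 0.18, all called, while Itgb1 (0.12 ± 0.07) and Itga2b (0.26 ± 0.29) were not.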

How the data were processed

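Total RNA of epididymal white adipose tissue was measured with the NanoString nCounter Mouse Immunology panel, which counts barcoded probe pairs without amplification. The authors deposited whole-number counts per probe, 1 column per mouse (48 in all), per the file headers; counting software and background steps are not given in the sources used here. The 547 panel genes, 14 reference genes, 8 negative and 6 positive controls were separated by their names and order in the table. Scaling used the geometric mean over the 14 reference genes in each library. The 491 genes whose mean count reached 10 were tested with edgeR 4.0.16 in R 4.3.3 (quasi-likelihood, 1 mean per diet, no covariate, Benjamini-Hochberg over the 491, threshold 0.05), and the SE is the log2 difference over the square root of F. The fit was tested on simulated counts. Within-sample ratios were compared by exact permutation over mice.

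The alternatives were a mean count of 30 or no filter, TMM scaling, a block on the replicate number, only the groups compared, the positive control ratio or lymph node markers as covariate, leaving out 4 libraries apart in epithelial markers (over 3 median absolute deviations), DESeq2 1.42.0, and each library left out. Leaving out 6 libraries high in Defb1 or Clu was chosen after seeing the data. The integrins and the gene lists were chosen with earlier results of these data known. All 7 integrins are named in every comparison, from a list at most the 4 genes with the smallest p, and as most alike the 3 genes with the highest within-diet correlation of log2(scaled count + 1). Deviations of same-numbered mice of different diets had a mean correlation of -0.016 (112 pairs), and those of differently numbered mice 0.007 (846 pairs). Replicate numbers were therefore not treated as pairs in the main fit. A mean near 0 cannot tell whether some mice shared a litter, cage or run. No 2 libraries were copies, with a chi-square per degree of freedom of at least 5.37 over 1128 pairs. Gene names matched RefSeq for 558 of 561 genes. That replicates are separate mice rests on the labels. A result on 1 gene list is not reported here.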

Additional observations from a re-analysis of the deposited data

Results flagged for a closer look

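Of 42 sets of 1 gene in 1 diet, 5 held a library far from the others of its diet. A library was flagged by its gap to the next one over the range of its diet. Chance gives about 1 in 20 only where counts are normal and sets independent. The sets share mice, so the 5 are not read as an excess. Western diet replicate 2 accounted for 3 of the 5. Its Itgb2 count was 1042 against 3614 to 5429 in the other 6 mice, its Itga5 count 107 against 345 to 456, and its Itga2b count 46.9 against 11.04 to 20.4. The same library had 173666 counts of Clu and 1255 of Defb1, and its Itga4 count was 192 against 655 to 1073, while its Itga6 count of 1133 lay within the other 6. Starch/oleate replicate 6 had 3409 counts of Itgb2 against 6389 to 8384 in the other 8, with 2632 counts of Defb1. Its Itga6 count, 1276, was the highest of its diet. Sucrose/oleate replicate 2 had 42.5 counts of Itga2b against 7.39 to 20.5 in the other 8, and 381 counts of Ppbp. The part of epididymal or platelet RNA in these values was not tested.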

How the results depend on the processing

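Of 33 calls of an integrin in a comparison, 15 were kept under every alternative that tested them and with each of the 48 libraries left out. On starch/oleate these were Itga4, Itga5, Itga6, Itgal and Itgb2, and on the Western diet Itga4, Itga5 and Itga6. The carbohydrate call of Itga6 and the fat calls of Itga4, Itga6, Itgal and Itgb2 were among them. The rest were Itga6 for sucrose minus starch with oleate and for palmitate minus oleate with starch. In sucrose minus starch with oleate the positive control ratios of the diets did not overlap. Whatever sets that ratio and the carbohydrate cannot be told apart there. In palmitate minus oleate with starch the ratios overlapped only through starch/palmitate 2, so the ratio and the fat can hardly be told apart. The direction of 1 call, Itgb1 on starch/oleate, was reversed under 2 alternatives: it had -0.14 with TMM scaling (adjusted p = 0.11) and -0.16 with DESeq2 (adjusted p = 0.038); the cause was not tested.

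The number of integrins called on sucrose/palmitate, 1, was 0 with TMM scaling, DESeq2, only the groups compared, the lymph node covariate or the positive control ratio, and 3 without the 6 libraries high in Defb1 or Clu. The positive control ratio left 0 on starch/palmitate and 0 on sucrose/oleate. Without the 6 libraries it was 5 on the Western diet and 1 for Western diet minus sucrose/palmitate. The interaction had 1 without the 4 libraries apart in epithelial markers, without the 6, and with DESeq2. Sucrose minus starch with oleate had 2 with TMM scaling, only the groups compared, both sets of libraries left out and DESeq2. The gene gained beside Itga6 was Itgb1 with TMM scaling and DESeq2 and Itgb2 in the other settings. Palmitate minus oleate with sucrose had 2 with TMM scaling, without the 6 libraries and with DESeq2, 0 with the positive control ratio, and 3 with lymph node markers as covariate. With starch it had 3 with TMM scaling and DESeq2 and 1 with lymph node markers as covariate. With the replicate block palmitate minus oleate with sucrose had 0; the block also ended the calls of Itga6 on starch/palmitate and of Itga5 for the fat. With single libraries left out, the counts were 0 to 3 with sucrose/palmitate, 1 to 3 with starch/palmitate, 6 to 7 with starch/oleate, 3 to 4 with the Western diet, 1 to 2 for carbohydrate, 0 to 1 for the interaction and for Western diet minus sucrose/palmitate, 1 to 2 for sucrose minus starch with oleate, and 0 to 2 and 3 to 6 for palmitate minus oleate with sucrose and with starch. They stayed at 5 on sucrose/oleate and 6 for the fat. The share of all genes called in each setting is not set beside these counts. Gains and losses between settings are therefore not read as particular to the integrins.

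For the Itga4 over Itgb1 ratio, sucrose/palmitate had 0.67 (exact permutation, adjusted p = 0.059) without the 4 libraries, starch/palmitate 0.71 (exact permutation, adjusted p = 0.14) without the 4 or the 6, and the Western diet 0.87 (exact permutation, adjusted p = 0.054) with the negative control mean subtracted and 0.86 (exact permutation, adjusted p = 0.060) without the 4. With single mice left out it ran from 0.52 to 0.76, 0.63 to 0.93 and 0.71 to 1.104 on these diets, and Itgal over Itgb2 on starch/palmitate from 0.35 to 0.65. Itga2b, at the level of the negative controls in 12 libraries, is limited by background.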
